A study of Mus musculus with 2 samples.

Results

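The 7 genes described here encode 2 secreted C1q-like proteins, C1ql2 and C1ql3, and the kainate receptor subunits Grik1, Grik2, Grik3, Grik4 and Grik5. They were found by gene symbol among the 33,696 genes of the deposited feature lists, each matching 1 identifier (ENSMUSG00000036907, ENSMUSG00000049630, ENSMUSG00000022935, ENSMUSG00000056073, ENSMUSG00000001985, ENSMUSG00000032017 and ENSMUSG00000003378, in the order named). Hippocampal nuclei taken at postnatal day 19 were sequenced one by one in 2 libraries. The control library came from Cicflox/flox mice and the other from Emx1-Cre; Cicflox/flox littermates, so all mice carried the floxed Cic allele in both copies, and the libraries differed in the Cre transgene. Emx1-Cre recombines in the lineage of dorsal telencephalic progenitors, which gives rise to pyramidal neurons, granule cells and part of the glia, and not to the cortical and hippocampal inhibitory neurons or microglia. A library held tissue of 3 pooled mice (2 males, 1 female), with 1 hippocampus given by each. With 1 library per genotype there was no replicate check, so no test was made, and all intervals cover counting error only.

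C1ql2 and C1ql3 are synthesised by dentate granule cells and released from their axons, the mossy fibers. In the synaptic cleft they join presynaptic neurexins to postsynaptic kainate receptors and recruit receptors containing Grik2 and Grik4 to the mossy fiber synapses of CA3 pyramidal neurons. Kainate receptors are glutamate-gated cation channels of 4 subunits. Grik1, Grik2 and Grik3 can form channels without the others, whereas Grik4 and Grik5 are high-affinity subunits that need a partner of the first kind, and Neto1 and Neto2 are auxiliary subunits that slow the channel's kinetics.

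The control library held 25,907 barcodes and 314,453,640 unique molecular identifiers (UMIs), the other 23,207 barcodes and 252,995,761 UMIs. After filtering and doublet removal 21,837 and 20,529 nuclei were used, with median depths of 9783 and 8765 UMIs, and 175 barcodes occurred in both libraries. Clustering without the 7 genes gave 36 clusters, of which 9 stayed unnamed (12.8% of control nuclei and 14.2% of the others), and the rest were called by their marker genes. In all, 17 classes had at least 100 nuclei in each library. Cic itself, which encodes the repressor Capicua, did not fall. Dentate granule-like nuclei held 542 Cic UMIs in control and 545 in the labelled knockout, or 9.26 and 12.9 CPM (the usual counts-per-million scale, over all UMIs of the class). The sources used here do not say which exons are floxed, and counts over the whole gene do not separate an intact from a recombined transcript, so Cic does not check the label. Etv4, a gene repressed by Capicua, stood at 1.04 CPM in control and at 113 CPM in the other library in the same class. It was also higher there in classes outside the Emx1 lineage. The levels were 1.88 and 12.2 CPM in Adarb2 inhibitory-like, 2.51 and 8.32 CPM in Lhx6 inhibitory-like and 6.34 and 31.6 CPM in microglia-like nuclei. The part of free RNA in these values was not tested. The second library is called by its label, the labelled knockout, throughout.

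The class called dentate granule-like held 4827 nuclei in control and 3854 in the labelled knockout, but different clusters held most of them. Cluster 1 held 4107 and 48 nuclei, cluster 4 held 16 and 2512, and cluster 6, the one filled from both sides, held 704 and 1294. The summed level of the 8 dentate granule markers was 1725 CPM in control and 1077 CPM in the labelled knockout, with 1 of 8 higher there, and that of the 8 immature granule markers was 149 and 212 CPM, with 7 of 8 higher. Markers of other cell types differed as well. Those of Cajal-Retzius cells summed to 7.74 and 46.1 CPM (6 of 7 higher), of choroid plexus to 8.49 and 34.2 CPM (3 of 6 higher) and of oligodendrocyte precursors to 334 and 495 CPM (4 of 6 higher). Those of oligodendrocytes went lower, at 215 and 166 CPM (0 of 9 higher). The part of these marker differences in the results below was not tested. CA3-like nuclei formed 1 cluster of 953 and 862 nuclei, in which the 8 CA3 markers summed to 1585 and 1679 CPM. There the choroid plexus markers summed to 67.7 and 219 CPM (5 of 6 higher) and the Cajal-Retzius markers to 7.47 and 21.9 CPM (7 of 7 higher). The subicular or cortical excitatory markers summed to 2307 and 1900 CPM (5 of 9 higher). The part of these differences was not tested either.

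**Figure D1:**
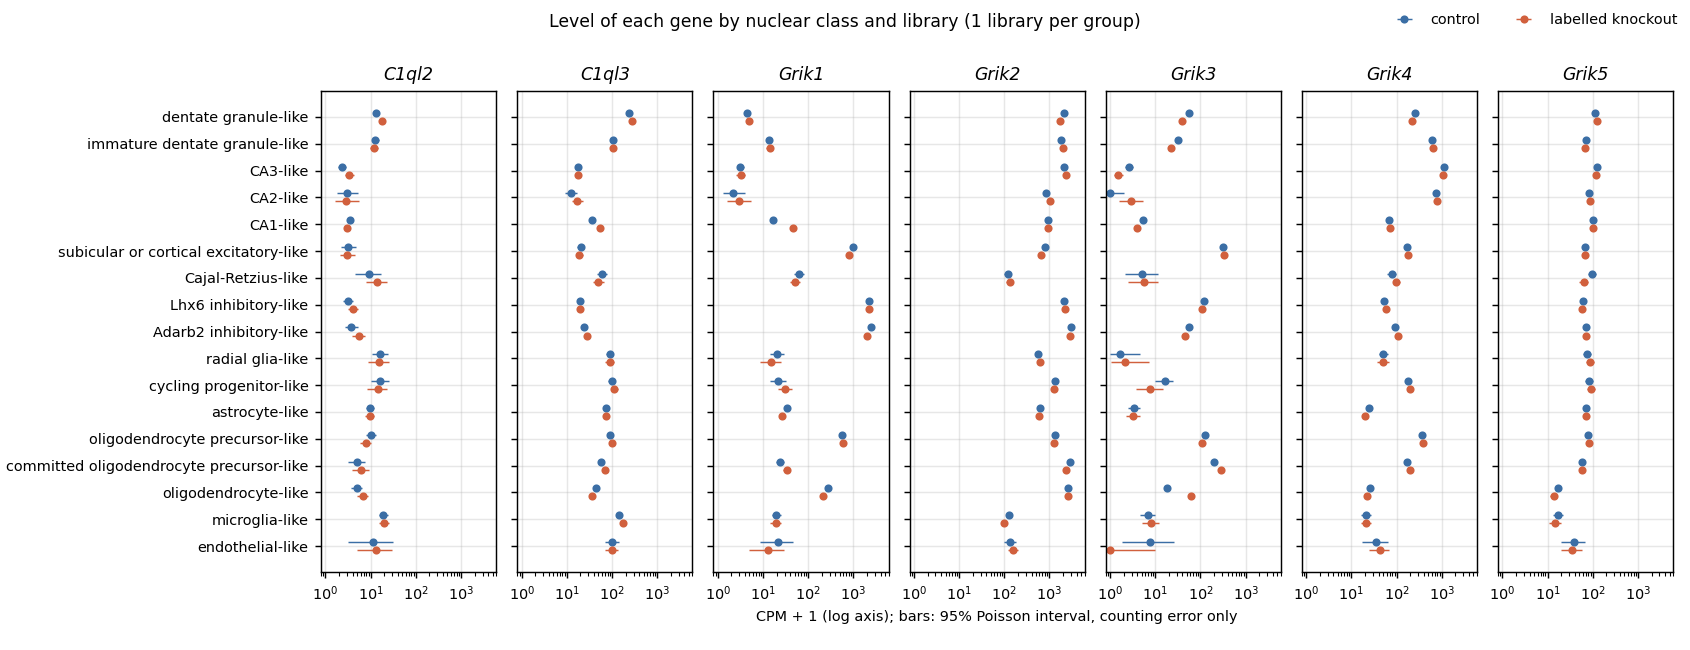
Level of the 7 genes in 17 nuclear classes, as CPM + 1 on a log axis, with 1 point per library and bars for the 95% Poisson interval of the counts. Grik1 and Grik3 range widely between classes, Grik1 up to 2466 CPM and Grik3 up to 323 CPM, Grik5 stays between about 13 and 126 CPM, and in most classes the points of the libraries lie close together.

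C1ql2 was the less abundant of the 2 ligands in granule cells. Dentate granule-like nuclei held 691 C1ql2 UMIs in control and 699 in the labelled knockout, from fewer nuclei, which gave 11.8 and 16.6 CPM. The log2 ratio of the labelled knockout over control was 0.49 (95% counting interval 0.34 to 0.64), with 0.56 in female nuclei, which come from 1 mouse per library, and 0.43 in male nuclei, which come from 2. It did not reach the fold of 1.5 used here as the lower of 2 size limits. Within cluster 6 the levels were 15.2 and 19.99 CPM (log2 ratio 0.39, interval 0.07 to 0.73).

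Free RNA in the droplets bears on the C1ql2 values. Microglia-like nuclei, which are not known to make it, carried 0.041 C1ql2 UMIs per nucleus in control and 0.034 in the labelled knockout. Dentate granule-like nuclei carried 0.143 and 0.181, which is 3.49 and 5.33 times as many. In the other 15 classes the number per nucleus lay between 0.0296 and 0.0631, close to the microglia-like value. A C1ql2 UMI was found in 13.2% of control dentate granule-like nuclei (exact interval 12.2% to 14.2%) and in 15.98% of the others (14.8% to 17.2%), against 4.04% and 3.33% of microglia-like nuclei. The median depths differ, however, at 11608 and 10500 UMIs in dentate granule-like and at 2153 and 1730 UMIs in microglia-like nuclei. Nuclei with at least 2000 UMIs were therefore thinned to 2000. This left out 671 of 1535 and 966 of 1500 microglia-like nuclei, but only 4 and 8 dentate granule-like nuclei. The shares in dentate granule-like nuclei were then 2.36% and 3.09%, and those in microglia-like nuclei 3.59% of 864 and 2.25% of 534. The granule-like share was thus the smaller one in control and the larger one in the labelled knockout. No interval was computed for the thinned shares, so these orders are not shown to exceed counting error. In CPM over all UMIs the control granule-like level was not above that of microglia-like nuclei (11.8 against 18.1 CPM), nor was that of the labelled knockout (16.6 against 18.7 CPM), and which scale describes the free RNA was not tested. The C1ql2 log2 ratio in microglia-like nuclei was 0.05 (interval −0.52 to 0.60).

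As both ligands are products of the same cells, the 250 bases before their annotated starts are shown (RefSeq, GRCm38.p6). C1ql2 lies on the plus strand, with the window at chr1:120340332-120340581 and a GC content of 68.8%, and C1ql3 on the minus strand, with the window at chr2:13010865-13011114 and a GC content of 66.4%.
C1ql2: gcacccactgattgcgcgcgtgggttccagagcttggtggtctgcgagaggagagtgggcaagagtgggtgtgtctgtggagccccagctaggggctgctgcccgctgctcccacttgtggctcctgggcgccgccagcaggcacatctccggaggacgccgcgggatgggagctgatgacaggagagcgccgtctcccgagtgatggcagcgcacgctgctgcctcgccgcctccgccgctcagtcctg
C1ql3: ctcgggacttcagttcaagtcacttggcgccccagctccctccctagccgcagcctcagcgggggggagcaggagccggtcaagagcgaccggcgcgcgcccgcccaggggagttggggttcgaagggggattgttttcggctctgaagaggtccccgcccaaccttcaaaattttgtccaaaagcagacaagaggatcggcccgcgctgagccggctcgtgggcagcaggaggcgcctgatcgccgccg
No letters are in capitals, because none of the motifs searched was present. The search covered the Capicua octamers TGAATGAA, TGAATGGA, TCAATGAA and TCAATGGA, the ETS core CCGGAAGT and the cAMP response element TGACGTCA, on both strands of windows of 300 bases around the start. The octamers occurred in 3.835% of 32,851 such windows, the ETS core in 3.887% and the cAMP response element in 1.79%, and none in the windows of the 6 members that had one (all but Grik1). The absence of these letters from these windows says nothing about binding elsewhere.

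C1ql3, the paralogue, was the dominant C1q-like transcript of granule cells. Dentate granule-like nuclei held 14089 C1ql3 UMIs in control and 11619 in the labelled knockout, or 241 and 275 CPM. The log2 ratio was 0.19 (0.16 to 0.23), with 0.12 in female and 0.24 in male nuclei, and in cluster 6 it was 0.02 (−0.06 to 0.09). Per nucleus the class carried 2.92 and 3.02 UMIs, against 0.328 and 0.315 in microglia-like nuclei. After thinning to 2000 UMIs a C1ql3 UMI was present in 32.4% and 35.9% of granule-like nuclei. The shares were 21.4% and 21.5% of the microglia-like nuclei that were deep enough to be thinned. On the scale of CPM per kilobase of annotated gene, C1ql3 stood at 26.8 and C1ql2 at 4.55 in control dentate granule-like nuclei. The gene lengths range from 2.6 kilobases for C1ql2 to 696.5 for Grik2 (RefSeq, GRCm38), and counts from the 3′ end need not scale with length.

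Counted per nucleus, CA1-like nuclei came next for C1ql3 among the 17 classes, whereas per UMI they lay below microglia-like nuclei, which held 145 and 173 CPM. They carried 0.675 C1ql3 UMIs per nucleus in control and 0.873 in the labelled knockout, or 34.9 and 52.0 CPM, a log2 ratio of 0.58 (0.47 to 0.68). Female nuclei gave 0.49 and male nuclei 0.57. Here too different clusters held most of the class, and in cluster 8, with 278 and 1430 nuclei, the levels were 52.3 and 50.0 CPM (log2 ratio −0.07), while cluster 20, with 310 and 373 nuclei, gave 39.8 and 58.8 CPM (0.56). Immature dentate granule-like nuclei carried 0.494 and 0.386 UMIs per nucleus (105 and 102 CPM, log2 ratio −0.04), far fewer than the granule-like class. In CA3-like nuclei C1ql3 was at 16.3 and 16.4 CPM, 1.24 and 1.16 times the microglia-like UMIs per nucleus. In the 12 remaining classes apart from microglia-like nuclei the number per nucleus was between 0.239 and 0.482.

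**Figure D2:**
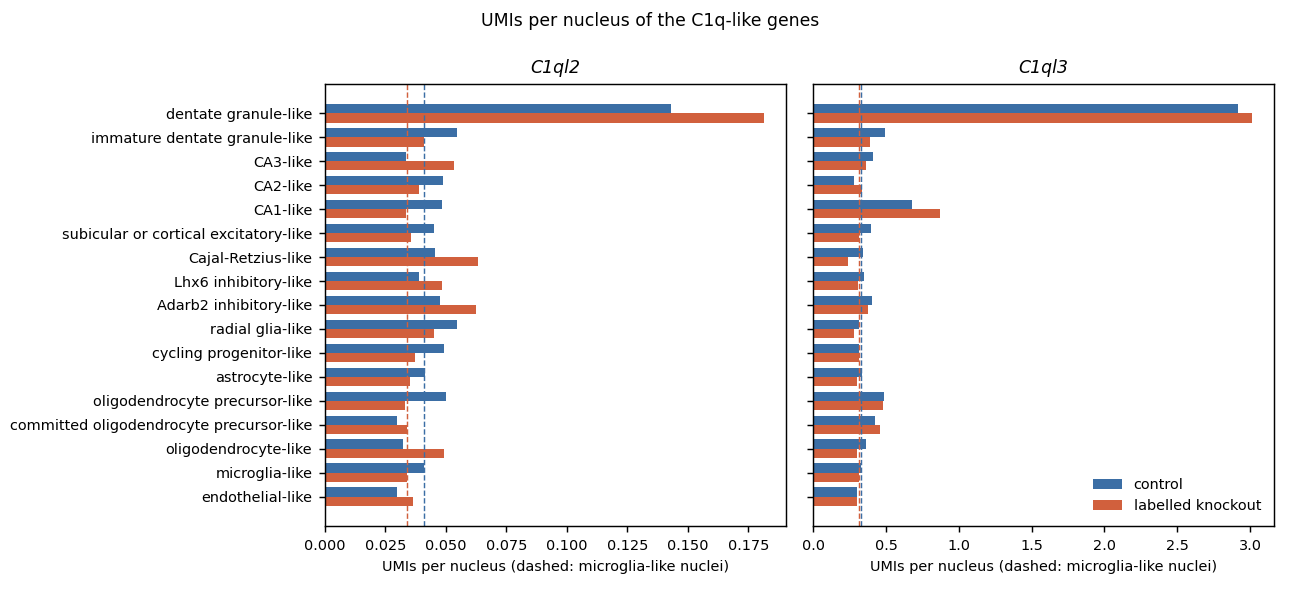
UMIs per nucleus of C1ql2 and C1ql3 in 17 nuclear classes, with 1 bar per library and dashed lines at the value of microglia-like nuclei in the same library. Dentate granule-like nuclei stand clear of the dashed lines for both genes, at 0.143 and 0.181 UMIs for C1ql2 and 2.92 and 3.02 for C1ql3, and CA1-like nuclei do so for C1ql3.

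On the receiving side, CA3-like nuclei expressed Grik2, Grik4 and Grik5 together. Grik2, the subunit that carries mossy fiber kainate currents, held 50123 UMIs in control and 44533 in the labelled knockout, or 2102 and 2319 CPM. The log2 ratio was 0.14 (0.12 to 0.16), with 0.07 in female and 0.15 in male nuclei, and it was 0.07 with median-of-ratios and 0.05 with TMM scaling. Grik4, the high-affinity subunit enriched at this synapse, held 26595 and 20628 UMIs, or 1116 and 1074 CPM. Its log2 ratio was −0.05 (−0.08 to −0.03), −0.05 in female and −0.03 in male nuclei. Grik5, the other high-affinity subunit, held 3001 and 2212 UMIs, or 126 and 115 CPM, with a log2 ratio of −0.13 (−0.21 to −0.05). A Grik2 UMI was present in 99.8% of control and 100.0% of the other CA3-like nuclei, a Grik4 UMI in 99.9% and 99.3%, and a Grik5 UMI in 92.6% and 88.6%, against 20.8% and 14.3%, 3.97% and 3.33%, and 3.65% and 2.33% of microglia-like nuclei, in that order. These shares are at unequal depth, with medians of 24388 and 21504.5 UMIs in CA3-like and 2153 and 1730 UMIs in microglia-like nuclei. Per kilobase of gene the 3 control levels were 3.02 for Grik2, 2.61 for Grik4 and 1.91 CPM for Grik5.

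Grik1 and Grik3 were low in CA3-like nuclei. Grik1 was at 2.18 and 2.19 CPM, 1.29 and 1.46 times the microglia-like UMIs per nucleus. Grik3 held 38 UMIs in control and 9 in the labelled knockout, or 1.59 and 0.469 CPM, 3.06 and 0.824 times the microglia-like UMIs per nucleus. Both fell below the minimum of 50 UMIs and 10 CPM in the higher library that a gene needed to be compared, as did C1ql2. Of the 4 members compared in CA3-like nuclei, 0 differed 2-fold between the libraries, where 1.79% of all 8029 genes compared did. Their median log2 ratio was −0.03, against 0.07 over all genes compared in the class. In dentate granule-like nuclei 6 members were compared and 0 differed 2-fold, where 3.09% of 8457 genes did, and the medians were −0.03 and 0.02.

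Grik2 was broadly expressed. Among the 17 classes it was highest in control in Adarb2 inhibitory-like nuclei (3045 CPM) and committed oligodendrocyte precursor-like nuclei (2862 CPM), whose ranges over all, female and male nuclei overlapped, as did the second of these with oligodendrocyte-like nuclei (2529 CPM). Lhx6 inhibitory-like (2127 CPM), CA3-like (2102 CPM) and dentate granule-like nuclei (2077 CPM) followed, and these 3 could not be ordered beyond their ranges. Immature dentate granule-like nuclei stood at 1842, oligodendrocyte precursor-like and cycling progenitor-like both at 1300.0, CA1-like at 908, CA2-like at 821, subicular or cortical excitatory-like at 793, astrocyte-like at 618 and radial glia-like nuclei at 552 CPM. Endothelial-like, microglia-like and Cajal-Retzius-like nuclei were lowest, between 119 and 135 CPM, with overlapping ranges. The labelled knockout stood at 2871 CPM in Adarb2 inhibitory-like, 2365 in committed oligodendrocyte precursor-like, 2548 in oligodendrocyte-like, 2171 in Lhx6 inhibitory-like nuclei and 1717 CPM in the dentate granule-like class.

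The direction of the Grik2 difference was not the same in all classes. In dentate granule-like nuclei the log2 ratio was −0.27 (−0.29 to −0.26), with −0.35 in female and −0.22 in male nuclei, and in cluster 6 it was −0.15, with 2149 and 1942 CPM. In immature dentate granule-like nuclei it was 0.09 (0.06 to 0.12), with 1842 and 1963 CPM. CA2-like nuclei stood at 821 and 1018 CPM, a log2 ratio of 0.31 (0.23 to 0.39), and subicular or cortical excitatory-like nuclei at 793 and 650 CPM, a log2 ratio of −0.29 (−0.35 to −0.23). In oligodendrocyte-like nuclei the class value of 0.01 stood beside lower levels in both clusters, 2078 and 1527 CPM in cluster 10 and 4177 and 2771 CPM in cluster 16, since cluster 16 held 183 of 1149 control nuclei and 680 of the 912 others. The annotation places 2 further counted genes, Gm26543 and Gm47018, on the same strand within Grik2, with 576 and 509 UMIs in control and 400 and 378 in the labelled knockout, and how reads in the overlap were assigned is not given in the sources used here.

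Grik4 was highest in CA3-like nuclei and next in CA2-like nuclei, at 743 CPM in control and 774 in the labelled knockout (log2 ratio 0.06, interval −0.03 to 0.14). Immature dentate granule-like nuclei stood at 608 and 650 CPM, more than dentate granule-like nuclei at 254 and 220 CPM. The log2 ratio of the labelled knockout over control was 0.10 (0.04 to 0.15) in the immature and −0.21 (−0.25 to −0.17) in the granule-like class, and in cluster 6 it was −0.14. Oligodendrocyte precursor-like nuclei, at 364 and 383 CPM, were the highest glial class, followed by committed oligodendrocyte precursor-like nuclei at 172 and 193 CPM. The levels were 178 and 198 CPM in cycling progenitor-like and 171 and 177 CPM in subicular or cortical excitatory-like nuclei. The other 9 classes lay between 19.2 and 106 CPM. In CA1-like nuclei, at 68.4 and 71.2 CPM, the female value was −0.27 and the male value 0.35, and the clusters differed as well, with 99.8 and 49.6 CPM in cluster 8 and 169 and 144 CPM in cluster 20.

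As a fold of CPM, Grik5 varied least between classes. Per nucleus its control values ran from 0.0371 to 3.15 UMIs, a wider fold than the 0.0296 to 0.143 of C1ql2. CA3-like nuclei, at 126 and 115 CPM, were first in control and second in the labelled knockout, and dentate granule-like nuclei, at 111 and 122 CPM, the reverse, with overlapping ranges in the labelled knockout. CA1-like nuclei stood at 102 and 98.6 CPM. Apart from CA3-like nuclei, each class overlapped the next in the control order of levels. From Cajal-Retzius-like nuclei down to committed oligodendrocyte precursor-like nuclei the control levels ran from 94.8 to 57.8 CPM, and endothelial-like, microglia-like and oligodendrocyte-like nuclei followed at 37.1, 16.4 and 16.1 CPM. The log2 ratio was 0.14 (0.09 to 0.20) in dentate granule-like nuclei. In Cajal-Retzius-like nuclei, early-born neurons that do not form mossy fiber synapses, Grik5 held 95 and 67 UMIs, or 94.8 and 62.0 CPM, a log2 ratio of −0.61 (−1.09 to −0.15). Female nuclei alone gave −0.45, short of the 1.5-fold limit, and male nuclei −0.66. It was the 1 member of 5 compared there that was lower by at least 1.5-fold, where 2.71% of 4090 genes were, and 0 differed 2-fold, where 1.44% did.

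Grik1 was highest in the 2 inhibitory-like classes, followed by subicular or cortical excitatory-like, oligodendrocyte precursor-like and oligodendrocyte-like nuclei. Control levels were 2466 CPM in Adarb2 inhibitory-like, 2228 in Lhx6 inhibitory-like, 984 in subicular or cortical excitatory-like, 560 in oligodendrocyte precursor-like and 270 in oligodendrocyte-like nuclei, each separated from the next beyond its range. The labelled knockout stood at 2009, 2214, 782, 584 and 214 CPM in the same classes. The log2 ratios were −0.30 (−0.33 to −0.26), −0.01 (−0.03 to 0.01), −0.33 (−0.39 to −0.28), 0.06 (−0.01 to 0.13) and −0.33 (−0.42 to −0.24). In 2 of these classes the clusters differed. The oligodendrocyte-like value pools cluster 10, at −0.68, with cluster 16, at 3.25, which different libraries fill. The subicular or cortical excitatory-like value pools cluster 23 (293 and 290 nuclei), at −0.22 (−0.27 to −0.16), with cluster 33 (17 and 46 nuclei), which held no Grik1 UMI in either library. Inhibitory-like nuclei, of types that do not descend from Emx1-expressing progenitors, held values near 0 in the Lhx6 class and below it in the Adarb2 class, the latter −0.42 in female and −0.19 in male nuclei. Cajal-Retzius-like nuclei held 61.9 and 50.9 CPM, and the other 11 classes stood under 50 CPM, with dentate granule-like nuclei at 3.48 and 3.88 CPM. Committed oligodendrocyte precursor-like nuclei stood at 22.7 and 32.4 CPM, against 18.7 and 18.4 CPM in microglia-like nuclei. Per nucleus they held 0.174 and 0.217 Grik1 UMIs, against 0.042 and 0.033 in microglia-like nuclei.

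Among the classes in which Grik1 was compared, CA1-like nuclei gave its largest difference. They held 631 UMIs in control and 1381 in the labelled knockout, or 15.9 and 45.3 CPM, against 18.7 and 18.4 CPM in microglia-like nuclei. Per nucleus this was 0.307 and 0.761 UMIs, against 0.0423 and 0.0333. The log2 ratio was 1.51 (1.38 to 1.65), with 0.94 in female and 1.65 in male nuclei, so that the female nuclei alone did not reach 2-fold. Grik1 was the 1 member of 5 compared in CA1-like nuclei that differed 2-fold, where 3.71% of 8297 genes did. Most of these UMIs lay in cluster 20, whose leading genes include Tacr3 and Lgr5. Its call as CA1-like was close to the limit, with 4 markers raised and a mean marker log2 fold of 0.588 (minimum 0.5). Clusters 8 and 9 stood at 1.59 and 1.6. In cluster 20, 310 control nuclei held 526 UMIs (75.4 CPM) and 373 of the labelled knockout held 1147 (164 CPM), a log2 ratio of 1.12 (0.97 to 1.27). Cluster 8, with 278 and 1430 nuclei, held 6.76 and 10.0 CPM (log2 ratio 0.55, 0.065 to 1.11), and cluster 9, with 1465 and 11 nuclei, 2.49 CPM in control. Without cluster 20 the class held 3.20 and 9.97 CPM, a log2 ratio of 1.64 (1.30 to 1.99), but these levels are below the minimum for a comparison, and the count of members differing 2-fold was 0. The count was also 0 at a coarser clustering and when the genes that differed between the libraries were left out of the clustering, where Grik1 again fell below that minimum in CA1-like nuclei, at log2 ratios of 1.63 and 1.27. Beside it, the Adarb2 inhibitory markers summed to 88.7 and 108 CPM (7 of 9 higher, Sp8 at 0 in both libraries), the Lhx6 inhibitory markers to 12.9 and 13.1 CPM (3 of 8 higher), the oligodendrocyte precursor markers to 384 and 468 CPM (3 of 6 higher), the subicular or cortical excitatory markers to 574 and 506 CPM (6 of 9 higher) and the CA1 markers to 975 and 811 CPM (5 of 8 higher), with Lhx6 inhibitory markers all above 0. Other sets stood further apart. The choroid plexus markers summed to 68.1 and 185 CPM (2 of 6 higher) and the immature dentate granule markers to 55.3 and 113.5 CPM (7 of 8 higher). The CA3 markers summed to 253 and 376 CPM (5 of 8 higher), the intermediate progenitor markers to 67.1 and 109 CPM (4 of 6 higher) and the Cajal-Retzius markers to 7.80 and 17.2 CPM (7 of 7 higher). Endothelial markers went lower, at 2.92 and 1.805 CPM. The part of these marker sets in the result was not tested.

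Grik3, the low-affinity subunit, was highest in subicular or cortical excitatory-like nuclei, at 310 CPM in control and 323 in the labelled knockout. Committed oligodendrocyte precursor-like nuclei followed with 198 and 282 CPM (log2 ratio 0.50, interval 0.37 to 0.64). The class's own markers summed to 9489 and 8576 CPM (1 of 6 higher) and the oligodendrocyte markers to 8009 and 6969 CPM (1 of 9 higher). The oligodendrocyte precursor markers summed to 2603 and 2985 CPM (4 of 6 higher). The part of these marker differences in the Grik3 value was not tested. Oligodendrocyte precursor-like nuclei held 125 and 110 CPM and Lhx6 inhibitory-like nuclei 121 and 108 CPM, and these neighbours overlapped. Dentate granule-like and Adarb2 inhibitory-like nuclei, which also overlapped, held 56.2 and 55.9 CPM in control and 38.5 and 45.5 CPM in the labelled knockout. In CA1-like, CA2-like, CA3-like, Cajal-Retzius-like, astrocyte-like, radial glia-like, microglia-like and endothelial-like nuclei Grik3 stayed at or under 6.97 CPM and was not compared, nor in cycling progenitor-like nuclei, with 18 and 7 UMIs.

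In granule cells Grik3 stood at a smaller value in the labelled knockout, short of the 1.5-fold limit. Dentate granule-like nuclei held 3293 and 1625 UMIs, a log2 ratio of −0.55 (−0.63 to −0.46), with −0.59 in female and −0.51 in male nuclei. The 2 library-specific clusters held 60.6 CPM (cluster 1, control) and 45.1 CPM (cluster 4, labelled knockout), and cluster 6 held 26.6 and 21.6 CPM (−0.30, −0.57 to −0.02). Immature dentate granule-like nuclei, a single cluster, held 313 and 187 UMIs, or 31.6 and 21.5 CPM, a log2 ratio of −0.55 (−0.82 to −0.29). The female value there was −0.25 and the male value −0.83. All 7 members were compared in that class. None was lower by at least 1.5-fold, where 0.658% of 9580 genes were, and 0 differed 2-fold, where 0.292% did. The Grik3 interval reached past the 1.5-fold limit, and the ratio itself did so at −0.61 with both other scalings, which made the count 1 of 7.

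Of all the pairs of a member and a class that passed the minimum counts, Grik3 in oligodendrocyte-like nuclei gave the largest difference. They held 163 Grik3 UMIs in control and 497 in the labelled knockout, or 17.1 and 62.2 CPM, a log2 ratio of 1.86 (1.60 to 2.13), with 2.94 in female and 1.75 in male nuclei. Grik3 was the 1 member of 6 compared that differed 2-fold, where 3.33% of 8089 genes did. With called doublets kept the ratio was 0.72. The clusters of the class differed in both Grik3 and size. Cluster 16, whose leading genes include Mobp and Creb5, held 183 control nuclei and 680 of the others, with 67.3 and 75.7 CPM of Grik3, a log2 ratio of 0.17 (−0.11 to 0.45). Cluster 10, with 966 and 232 nuclei, held 25 UMIs and 1 UMI, or 3.34 and 0.697 CPM. Grik1 stood at 337 and 210 CPM in cluster 10 and at 22.5 and 215 CPM in cluster 16. The 9 oligodendrocyte markers summed to 23160 and 23130 CPM, the 6 committed precursor markers to 984 and 863 CPM (2 of 6 higher) and the 6 precursor markers to 315 and 220 CPM (2 of 6 higher), with none of either list at 0. The CA3 markers summed to 145 and 316 CPM (5 of 8 higher), the astrocyte markers to 192 and 264 CPM (4 of 8 higher) and the radial glia markers to 84.0 and 55.5 CPM (3 of 8 higher). The part of these marker sets in the result was not tested. Whether cluster 16 is a state of oligodendrocytes or reflects the library it mostly comes from cannot be told apart with 1 library per genotype.

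**Figure D3:**
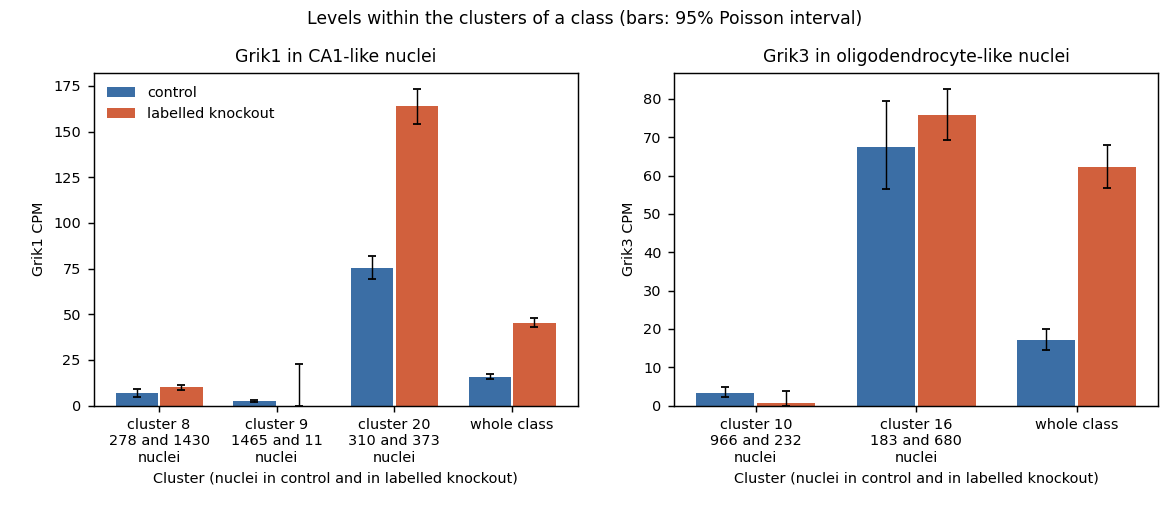
Grik1 in the 3 CA1-like clusters and Grik3 in the 2 oligodendrocyte-like clusters, in CPM, with the whole class at the right of each panel and bars for the 95% Poisson interval. Grik1 is concentrated in cluster 20 (75.4 and 164 CPM), and Grik3 is at 67.3 and 75.7 CPM in cluster 16 and under 4 CPM in cluster 10, although the class values are 17.1 and 62.2 CPM.

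Over the 17 classes, 86 of the 119 pairs of a member and a class passed the minimum counts. Of these, 3 differed by at least 1.5-fold (4 with either other scaling) and 2, Grik1 in CA1-like and Grik3 in oligodendrocyte-like nuclei, by at least 2-fold. The share of all genes that differed by 1.5-fold ranged over the classes from 0.537% in Lhx6 inhibitory-like to 18.9% in endothelial-like nuclei, and the share that differed 2-fold from 0.0229% to 6.08% in the same classes. Among the 6 members compared in Lhx6 inhibitory-like nuclei, 0 differed by 1.5-fold, where 0.537% of 8746 genes did, and the member furthest from 0 there was Grik3 at −0.16 (−0.26 to −0.06).

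**Figure D4:**
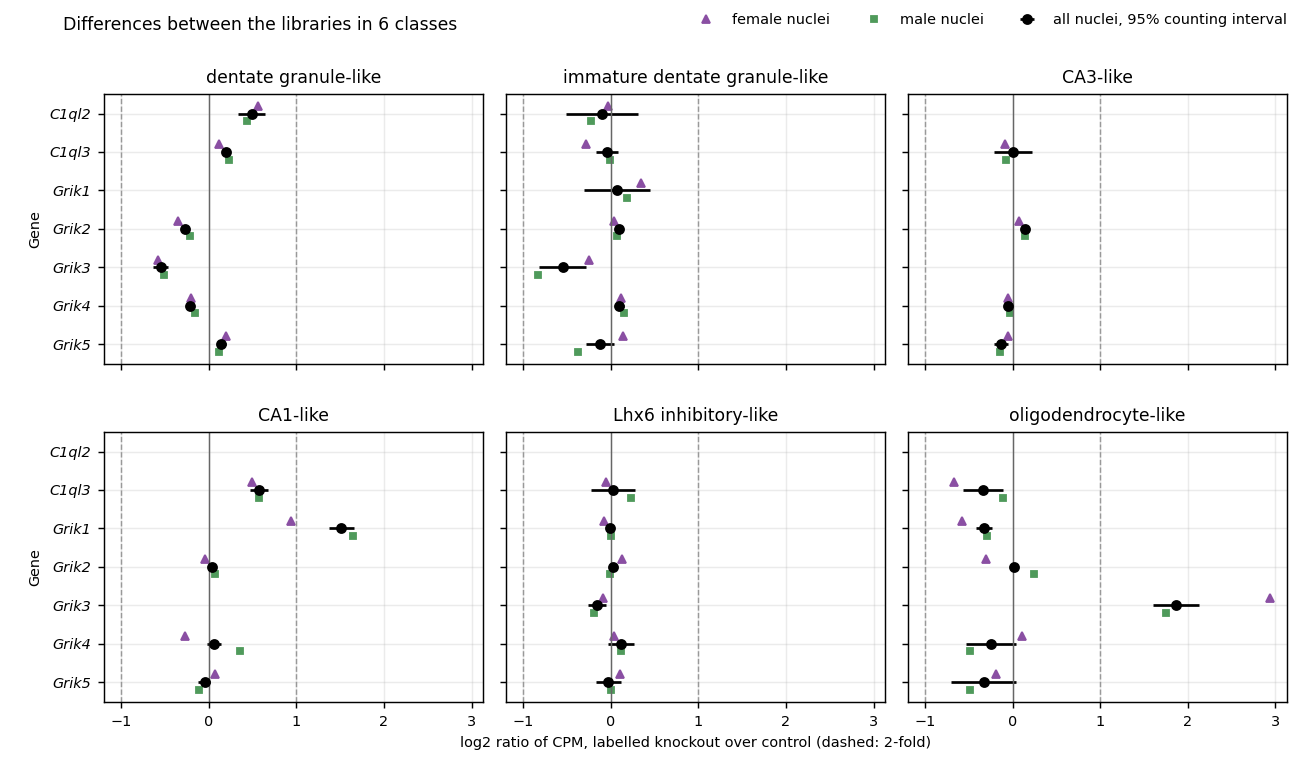
Log2 ratio of CPM, labelled knockout over control, of the members compared in 6 classes, with 95% counting intervals for all nuclei and separate points for female and male nuclei. Dashed lines mark 2-fold. In dentate granule-like nuclei C1ql2, C1ql3 and Grik5 lie above 0 and Grik2, Grik3 and Grik4 below it for both sexes, and in CA3-like nuclei the values lie close to 0, from −0.13 for Grik5 to 0.14 for Grik2.

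Of the auxiliary subunit genes in the cell types of this synapse, Neto1 was lower by at least 1.5-fold in dentate granule-like nuclei, and the other values, Neto2 there and both genes in CA3-like nuclei, were negative without reaching that limit. Neto2 in CA3-like nuclei passed it with other scaling of the libraries, at −0.64 with median-of-ratios and −0.65 with TMM factors. In dentate granule-like nuclei Neto1 held 14413 UMIs in control and 5542 in the labelled knockout, or 246 and 131 CPM, a log2 ratio of −0.91 (−0.95 to −0.86), with −0.83 in female and −0.96 in male nuclei. In cluster 6 the levels were 178 and 140.0 CPM (−0.35, −0.45 to −0.24). In CA3-like nuclei Neto1 stood at 1174 and 910 CPM (−0.37, −0.39 to −0.34), in CA2-like at 334 and 198 CPM (−0.76), in CA1-like at 201 and 152 CPM (−0.40, with −1.69 in cluster 8 and −0.62 in cluster 20), and in Lhx6 and Adarb2 inhibitory-like nuclei at 770 and 751 CPM (−0.04) and 709 and 688 CPM (−0.04). Oligodendrocyte-like nuclei, at 14.1 and 6.01 CPM from 134 and 48 UMIs, passed 2-fold (−1.22, with −0.57 in female nuclei). Within their cluster 10 (966 and 232 nuclei) Neto1 gave −0.625 (−1.63 to 0.16). Immature dentate granule-like nuclei, at 21.9 and 13.7 CPM, passed 1.5-fold (−0.67, with −0.05 in female nuclei), as did the CA2-like value. Of all genes compared, 1.12% were lower by 2-fold in the oligodendrocyte-like class. By 1.5-fold, 0.658% were lower in the immature and 3.42% in the CA2-like class. Microglia-like nuclei gave −0.89 from 149 and 63 UMIs, at 0.097 and 0.042 UMIs per nucleus against 2.99 and 1.44 in dentate granule-like nuclei. The oligodendrocyte-like UMIs came from 1149 and 912 nuclei. Immature dentate granule-like nuclei, numbering 2113 and 2299, held 217 and 119 Neto1 UMIs. Per nucleus both classes lay near the microglia-like level, and the part of free RNA in their ratios was not tested. Neto2 held 12.04 and 8.88 CPM in dentate granule-like (−0.44, −0.62 to −0.26) and 136 and 91.7 CPM in CA3-like nuclei (−0.56, −0.65 to −0.48), and in radial glia-like nuclei −0.59 from 95 and 37 UMIs.

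The partners, Neto1 and Neto2 among them, were given by a list of 23 genes, of which 15 were compared in dentate granule-like and 15 in CA3-like nuclei. None differed 2-fold in either class. In dentate granule-like nuclei 1 of 15, Neto1, was lower by at least 1.5-fold, where 2.78% of all genes compared were. In CA3-like nuclei 0 of 15 differed by 1.5-fold, where 6.13% did, and with either other scaling 1 did, Neto2. The medians over the list were 0.02 and −0.002, against 0.02 and 0.07 over all genes compared. Among presynaptic receptors of the ligands, granule cells gave −0.29 for Nrxn2 (45.5 and 37.1 CPM) and −0.41 for Nrxn3 (940 and 707 CPM). Adgrb3, an adhesion receptor that binds C1q-like proteins, stood at 2527 and 2708 CPM in dentate granule-like (0.10) and 2199 and 2803 CPM in CA3-like nuclei (0.35, 0.33 to 0.37). Grip1, a scaffold protein of glutamate receptors, gave 0.33 in CA3-like nuclei, from 743 and 931 CPM. Bcl11b, a transcription factor upstream of C1ql2, stood at 301 and 264 CPM in dentate granule-like nuclei (−0.19, −0.22 to −0.15), while C1ql2 stood at 0.49. The other ligands C1ql1, C1ql4 and Cbln1 to Cbln4, and of the scaffold and trafficking genes Klhl17 and Snapin, were below the minimum counts in both classes. C1ql1 reached it in oligodendrocyte precursor-like nuclei, with 804 and 770 UMIs, or 136 CPM in both libraries. It did so in committed oligodendrocyte precursor-like nuclei as well, and Cbln2 did in Adarb2 inhibitory-like and subicular or cortical excitatory-like nuclei.

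**Figure D5:**
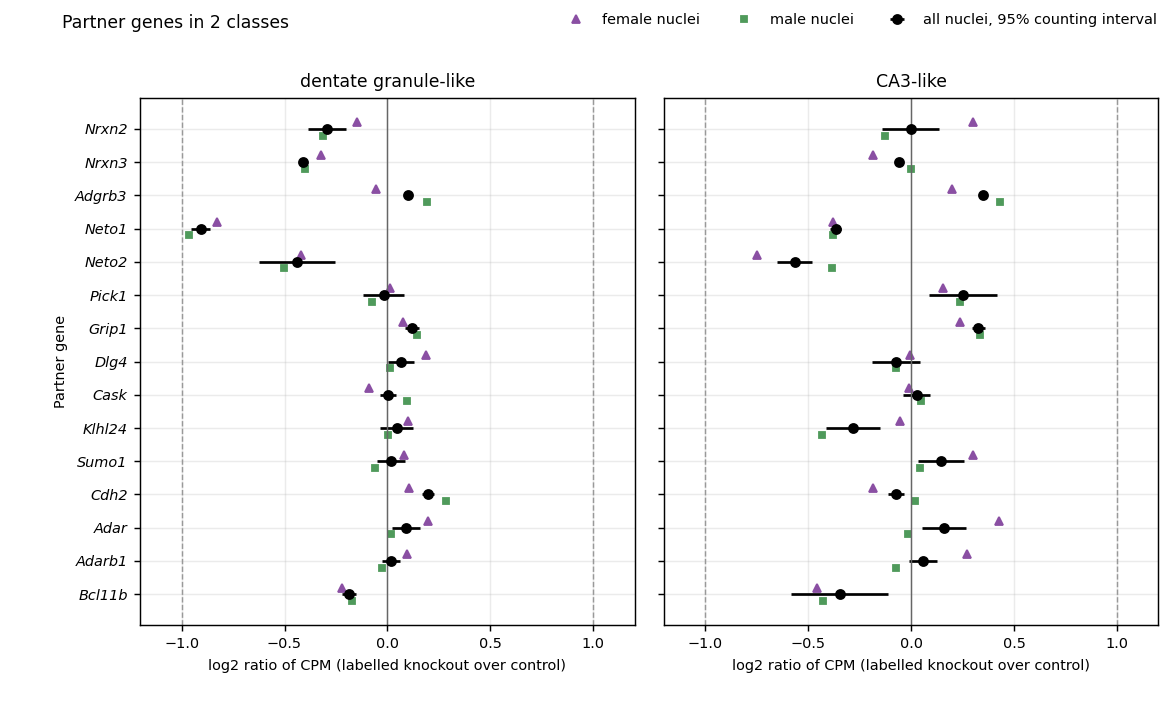
Log2 ratio of CPM, labelled knockout over control, of the partner genes compared in dentate granule-like and CA3-like nuclei, with 95% counting intervals for all nuclei and separate points for female and male nuclei. Neto1 and Neto2 lie below 0 in both classes and both sexes, and Neto1 in dentate granule-like nuclei, at −0.91, is the value nearest the 2-fold line.

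The genes whose levels over the 17 control classes most resembled each member were ranked by the Pearson correlation of log2(CPM + 1) among 12,768 genes, as a description of points that share a library and differ in depth. Closest to C1ql2 were Arxes1 (0.94), Ncor1 (0.93) and Edc3 (0.92), and closest to C1ql3 were Mrfap1 (0.86), Ppil2 (0.86) and Hsd17b8 (0.86). C1ql2 and C1ql3 themselves correlated at 0.92, and both had high CPM in shallow classes such as microglia-like nuclei, which are not known to make them. Grik1 was closest to Alk (0.94), Chrm2 (0.86) and Elfn1 (0.86), and Grik3 to Lrrtm3 (0.89), Cntn6 (0.84) and Kif26a (0.83), while Grik1 and Grik3 correlated at 0.64. Grik2 was closest to Gm11659 (0.84), Gm27153 (0.84) and Ttbk1 (0.82), Grik4 to Ephb2 (0.80), Adam11 (0.79) and Nexmif (0.78), and Grik5 to Gm16835 (0.92), Astn1 (0.91) and 9630028H03Rik (0.90).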

How the data were processed

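Per the file headers and the submitters' processing notes, the authors made the deposited matrices of raw UMI counts per gene and barcode with Cell Ranger 8.0.1, and the notes name mm39; whether intronic reads were counted is not given in the sources used here. Nuclei with fewer than 500 genes or over 5% mitochondrial UMIs were dropped. Scrublet in scanpy 1.11.5 called doublets per library (12.86% and 10.91%, with exact neighbours), which were removed. Leiden clustering (resolution 1, 30 components of 3000 variable genes, the 7 members left out) was followed by naming from 23 marker sets. A cluster needed 3 raised markers and a mean marker log2 fold of 0.5. Its 10 leading genes could not hold more markers of another set than of its own, which left clusters 13 and 22 unnamed (918 and 784 nuclei). A cluster of very deep nuclei was left unnamed by a limit of 3 times the library's median depth, chosen after seeing the clusters. UMIs were summed per class and library. To be compared, a gene needed 50 or more UMIs and 10 or more CPM in whichever library was higher, and the size limits were 2-fold and 1.5-fold. Ratios had 0.5 UMI added and exact 95% conditional binomial intervals. Nuclei with at least 2 Xist UMIs and no Y-linked UMI were called female, and those with the reverse (at least 1 Y-linked UMI) male. Counts were simulated from the real sums of the dentate granule-like class and of the CA1-like and CA3-like classes only. There the intervals held the simulated ratio in about 95% of genes. This checks how the intervals treat counting error. It does not test the real ratios for differences between mice or libraries, cluster make-up or free RNA. TMM factors came from edgeR 4.0.16. All members are named, partners come from the list (without 1 further gene, not reported here), and the 3 most alike genes are named per member. The members and lists were chosen with earlier results of these data known. The alternatives covered scaling, doublets, depth, sex, free RNA, mitochondrial filter, clustering and minimum counts.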

Additional observations from a re-analysis of the deposited data

Results flagged for a closer look

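In 4 genes the labelled knockout over control difference ran in opposite directions in different classes, with the counting intervals of all, female and male nuclei each on the same side of 0 in each class named. These differences between classes were not tested, and the female and male nuclei are parts of the same libraries and not replicates. For Grik1 the log2 ratios of CA1-like (1.51) and subicular or cortical excitatory-like nuclei (−0.33, with −0.22 in its cluster 23) lay 1.84 apart. For Grik3 those of oligodendrocyte-like (1.86) and dentate granule-like nuclei (−0.55) lay 2.41 apart. Beside these, Grik1 gave 1.12 within CA1-like cluster 20 and 1.64 without it. The rest of that class pools cluster 8 (278 and 1430 nuclei) with cluster 9 (1465 and 11 nuclei), and within cluster 8 Grik1 gave 0.55 (0.065 to 1.11). Grik3 gave 0.17 within oligodendrocyte-like cluster 16 and −1.71 within cluster 10, the latter on 25 UMIs and 1 UMI. For Grik2 the log2 ratios of CA2-like (0.31) and subicular or cortical excitatory-like nuclei (−0.29) lay 0.60 apart. For Grik4 those of immature dentate granule-like (0.10) and dentate granule-like nuclei (−0.21) lay 0.31 apart, but the immature value was 0.04 (−0.02 to 0.09) with median-of-ratios and 0.03 (−0.02 to 0.09) with TMM scaling.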

How the results depend on the processing

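No paired analysis was possible because each genotype had 1 library, and for the same reason no replicate could be left out. The log2 ratio of Grik2 in CA3-like nuclei (0.14) was 0.066 with median-of-ratios scaling, 0.054 with TMM and 0.067 in female nuclei. That of Grik4 in CA3-like nuclei (−0.05) was −0.13 with median-of-ratios scaling, −0.14 with TMM, −0.10 after thinning and −0.028 in male nuclei. That of C1ql2 in dentate granule-like nuclei (0.49) was 0.33 after thinning and 0.65 with free RNA subtracted. That of C1ql3 there (0.19) was 0.24 after thinning, 0.12 in female and 0.24 in male nuclei. The number of members differing 2-fold in CA3-like nuclei (0) was 1, Grik3, with a minimum of 20 UMIs and none on CPM. In CA1-like nuclei (1) it was 0 in female nuclei, 0 at a Leiden resolution of 0.5, 0 with clustering without the genes past the size limit, and 0 without cluster 20, the last an alternative chosen after seeing the data. In the last 3 the Grik1 ratio (1.51) was 1.63, 1.27 and 1.64, but its level was below 10 CPM in both libraries, so it was not compared. Grik3 in oligodendrocyte-like nuclei turned from 1.86 to −1.71 without cluster 16, also chosen after seeing the data, on 25 UMIs and 1 UMI. Relative to total UMIs, median-of-ratios and TMM scaling moved all ratios by −0.11 and −0.12 in CA1-like and in CA2-like nuclei, by −0.076 and −0.088 in CA3-like and by −0.061 and −0.062 in immature dentate granule-like nuclei. Counts past 1.5-fold under these scalings were added after seeing the data. Of 86 ratios compared, 17 left their counting interval under either scaling, 37 in female nuclei alone, 29 after thinning, 27 in male nuclei alone, 19 with doublets kept, 6 with the mean of nucleus CPM and 0 with the mitochondrial limit at 1%, as did 16 of 80 with free RNA subtracted and 4 of 83 under either other clustering. The sign itself changed in 13 of 86 ratios with median-of-ratios, 14 with TMM and 24 in female nuclei alone. It changed in 16 after thinning, 16 in male nuclei alone, 16 with doublets kept and 3 with the mean of nucleus CPM. With free RNA subtracted 5 of 80 changed sign, and with the other clusterings 5 and 8 of 83. The genotype cannot be told apart from other differences between the 2 libraries.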

Other observations

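Hilar mossy-like nuclei, the other target of granule cell axons in the hilus, numbered 71 in control and 112 in the library labelled knockout, too few for one of the compared classes. They held the highest Grik2 levels of any named class, 3268 and 3361 CPM, with 613 and 625 CPM of Grik4 and 88.7 and 89.5 CPM of Grik5, and log2 ratios of 0.04, 0.03 and 0.01. C1ql3 stood at 85.4 and 65.7 CPM there (−0.38, interval −0.70 to −0.05) and Neto1 at 291 and 202 CPM (−0.53). Among the clusters that stayed unnamed, the one numbered 13, nearest to CA1 by its markers, held 17.6 and 52.9 CPM of Grik1, a log2 ratio of 1.59 (1.36 to 1.82). Cluster 22, nearest to CA3, held 813 and 788 CPM of Grik4 and 17.3 and 4.33 CPM of Grik3. Cluster 21, nearest to subicular or cortical excitatory neurons, held 419 and 366 CPM of Grik3.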
